A study of Mus musculus with 6 samples.

Results

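The genes of ubiquitin-conjugating (E2) enzymes were examined in poly(A) RNA of fully growing mouse oocytes, as the 37 genes among the 25239 of the deposited count table whose symbol starts with Ube2 followed by a lower-case letter. One further gene with such a name, Ube2d-ps, was left out because its name ends in -ps. The groups were WT, from wild-type females, and cKO, from conditional knockout females that carry Gdf9-cre, a driver expressed in the oocyte and not in most other cells of the follicle. All were collected 36 to 48 h after PMSG, a gonadotropin that stimulates follicle growth, and each genotype had 3 libraries, made by Smart-seq2, which copies whole poly(A) transcripts from few cells. The labels give neither the strain or age of the females, nor the number of oocytes per library, nor whether each library had its own animals, so p-values reflect how much these libraries vary, part of which may be technical. NAT10 is the enzyme that acetylates cytidine in RNA, and WT was compared with cKO to see which transcripts differ without it.

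Ubiquitin is activated by an E1 enzyme, handed to a cysteine in the catalytic core of an E2 enzyme, and passed on to a substrate with the help of an E3 ligase. Which E2 takes part decides in large measure whether a substrate receives a single ubiquitin or a chain, and of which linkage, and a few E2 enzymes carry NEDD8 or other ubiquitin-like proteins instead. In oocytes the pathway is best known from the anaphase-promoting complex, an E3 that works with UBE2C and UBE2S to drive the exit from meiotic metaphase. A member of the name rule that lacks the E2 role is Ube2cbp, an older symbol of Ube3d, which encodes an E3 ligase that binds an E2.

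The stretch of the coding sequence around the catalytic cysteine, which takes up ubiquitin, is shown for related members whose transcripts are compared below. It was found in 1 GENCODE M21 transcript per gene (mm10 build) by searching in frame for a histidine, a proline and an asparagine or histidine codon followed by a cysteine codon 5 to 12 codons on. Capitals mark these codons, and each line reads 5′ to 3′.
Ube2t: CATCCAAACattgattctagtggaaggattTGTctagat
Ube2d1: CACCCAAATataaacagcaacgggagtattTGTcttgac
Ube2d3: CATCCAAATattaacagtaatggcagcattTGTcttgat
Ube2a: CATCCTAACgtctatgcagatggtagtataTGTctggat
Ube2b: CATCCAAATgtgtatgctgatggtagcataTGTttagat
Ube2c: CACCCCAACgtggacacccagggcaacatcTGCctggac
Ube2s: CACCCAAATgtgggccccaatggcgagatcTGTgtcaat
Ube2w: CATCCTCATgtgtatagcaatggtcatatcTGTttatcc
The search matched 23 of the 37 members, and in 20 the cysteine codon was recorded 10 codons after the histidine codon, with the distance for Ube2d2a not used here. Among the 14 without a match were Ube2v1 and Ube2v2, which encode E2 variants without a catalytic cysteine, and Ube2cbp. Genes of E2 enzymes such as Ube2e1, Ube2e2, Ube2e3, Ube2j1, Ube2j2, Ube2q1, Ube2q2 and Ube2z had no match either. The search therefore does not separate E2 genes from others. A missing match says only that these codons were not found in that transcript. Over the 39 bases shown, Ube2d1 and Ube2d3 differed at 7 bases in 7 of 13 codons, Ube2a and Ube2b at 7 bases in 6 codons, and Ube2c and Ube2s at 13 bases in 9 codons.

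E2 transcripts were abundant in these oocytes, and a few made up most of them. Counts are given as CPM, counts scaled to a fixed library total after TMM normalization, for a gene across libraries, and as RPKM, that is CPM per kilobase of exon, where levels of different genes are compared. Ube2t had the highest level per kilobase, with a mean over the 6 libraries of 621 RPKM, followed by Ube2d3 (304), Ube2c (238), Ube2a (175), Ube2w (101) and Ube2d2a (85.8 RPKM). The first 4 places were the same in each genotype, while Ube2w and Ube2d2a ranked 5 and 6 in WT but 6 and 7 in cKO. Together these 6 held 72.4% to 75.6% of the summed RPKM of all 37 members in WT and 70.7% to 73.8% in cKO. Ube2t ranked first and Ube2d3 second in every library. The share of Ube2t was 24.7% to 27.1% in WT and 32.0% to 34.8% in cKO, while that of Ube2d3 was 16.9% to 17.8% in WT and 11.6% to 12.1% in cKO. Neither pair of ranges overlapped, and a share among members does not depend on the scaling factor of a library. It can depend on a trend of counts with exonic length, which is 1133 bases for Ube2t and 4695 for Ube2d3. After such a trend was removed from each library, their log2 changes in cKO were 0.33 and -0.28, against 0.53 and -0.40 before. The summed level of all members was 4689 to 5244 CPM in WT and 4924 to 5160 CPM in cKO, ranges that did overlap.

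Library totals ran from 20167665 to 29407659 counts, so a count of 3, the limit that a count of 0 allows, stood for 0.102 to 0.149 CPM, for counting error only. The targeted transcript Nat10 was at 44.98 to 64.5 CPM in WT and 7.18 to 7.98 CPM in cKO. Of 12 oocyte markers tested 5 were called higher and 2 lower with TMM, beside 20.1% of all tested genes in each direction. Zp3 was at a mean of 3262 CPM in WT and 4377 CPM in cKO, and Nlrp5 at 1540.5 and 1021 CPM. Gdf9 was not called, at a mean of 7675 CPM in WT and 8065 CPM in cKO. The 14 granulosa and cumulus markers summed to 99.7 to 105 CPM in WT and 81.7 to 84.8 CPM in cKO. Of the 10 tested among them 0 were called higher and 2 lower in edgeR, Inha and Hsd17b1, and 5 had an unadjusted p under 0.05, among them Fshr, which went the other way. The defining markers Foxl2 and Amh had means of 0.119 and 0.394 CPM in WT and 0.0959 and 0.211 CPM in cKO. Other granulosa markers stood higher, with Cyp19a1 at means of 37.6 CPM in WT and 34.1 CPM in cKO. Nr5a2 was at 23.3 and 19.0 CPM, Cyp11a1 at 16.4 and 14.9 CPM and Inha at 10.4 and 3.93 CPM. The 4 hemoglobin genes listed had no count in any library, while the immune marker Cd68 had means of 2.80 and 3.52 CPM. The 4 endothelial markers summed to 61.8 to 71.1 CPM in WT and 60.7 to 69.3 CPM in cKO. Most of this was Pecam1, at means of 58.9 and 61.6 CPM and not called. Of the 3 tested among them 1 was called lower in edgeR, Kdr, at means of 4.29 CPM in WT and 0.186 CPM in cKO. The 7 theca and stroma markers summed to 3.05 to 5.17 CPM in WT and 2.47 to 3.88 CPM in cKO, and 0 of the 3 tested were called. Whether transcripts of such cells had a part in the E2 results was not tested.

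More E2 genes were higher than lower in cKO with TMM scaling and with library totals alone. Once libraries were scaled by the spike-in RNA, 1 was called higher and 7 lower, where 8.37% of all tested genes were called higher and 34.2% lower. With TMM, of the 33 members that passed the filter on low counts, 14 rose and 4 fell (edgeR quasi-likelihood test, threshold 0.05 after Benjamini-Hochberg adjustment over all 14114 genes tested). That was 42.4% higher and 12.1% lower, where 20.1% of all tested genes were called higher and 20.1% lower, together 40.2%. The libraries of the genotypes did not overlap in CPM for 21 members, 16 with cKO above and 5 with cKO below, against 26% of all tested genes in each direction. The median log2 fold change over the 33 members was 0.30, with quartiles of 0.05 and 0.64, beside a median of 0.01 over all tested genes. Without WT replicate 1, 2 or 3 the members called higher numbered 8, 8 and 9, and without cKO replicate 1, 2 or 3 they numbered 9, 13 and 7, with 4 called lower each time. Members chosen by name are not a random sample of genes, and no test was made of the list as a whole.

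The spike-in table gives the share of reads from ERCC RNA, a set of foreign transcripts added as a spike-in. Endogenous reads per spike-in read were 344, 370.0 and 288 in WT and 269.7, 216 and 214 in cKO, so that all 3 cKO libraries lay below WT. Fewer oocytes in a library and less RNA per oocyte cannot be told apart in such values. With this scaling the median of all tested genes moved to -0.39 and that of the members to -0.12 on the log2 scale, so the members lay 0.27 above all genes, compared with 0.30 above with TMM. Of the 14 members that rose with TMM, 13 kept a positive value and 1, Ube2q2, was still called. The log2 changes of Ube2e1, Ube2e3, Ube2s, Ube2m, Ube2z and Ube2q1 were 0.49, 0.053, 0.46, 0.60, 0.39 and 0.24. The 4 that fell were called again, with log2 changes of -0.81 for Ube2d3, -0.94 for Ube2h, -1.19 for Ube2cbp and -1.25 for Ube2u, and Ube2c, Ube2w and Ube2l3 were called lower as well, against 8.37% of all genes called higher and 34.2% lower with this scaling. Library totals alone moved the median of all genes to 0.12 and called 15 members higher and 4 lower, against 24.4% and 16% of all genes. With TMM, limma-voom called 12 members higher and 4 lower, against 20.2% and 20.7% of all genes, and DESeq2 14 and 4, against 21.4% and 20.9%.

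**Figure D1:**
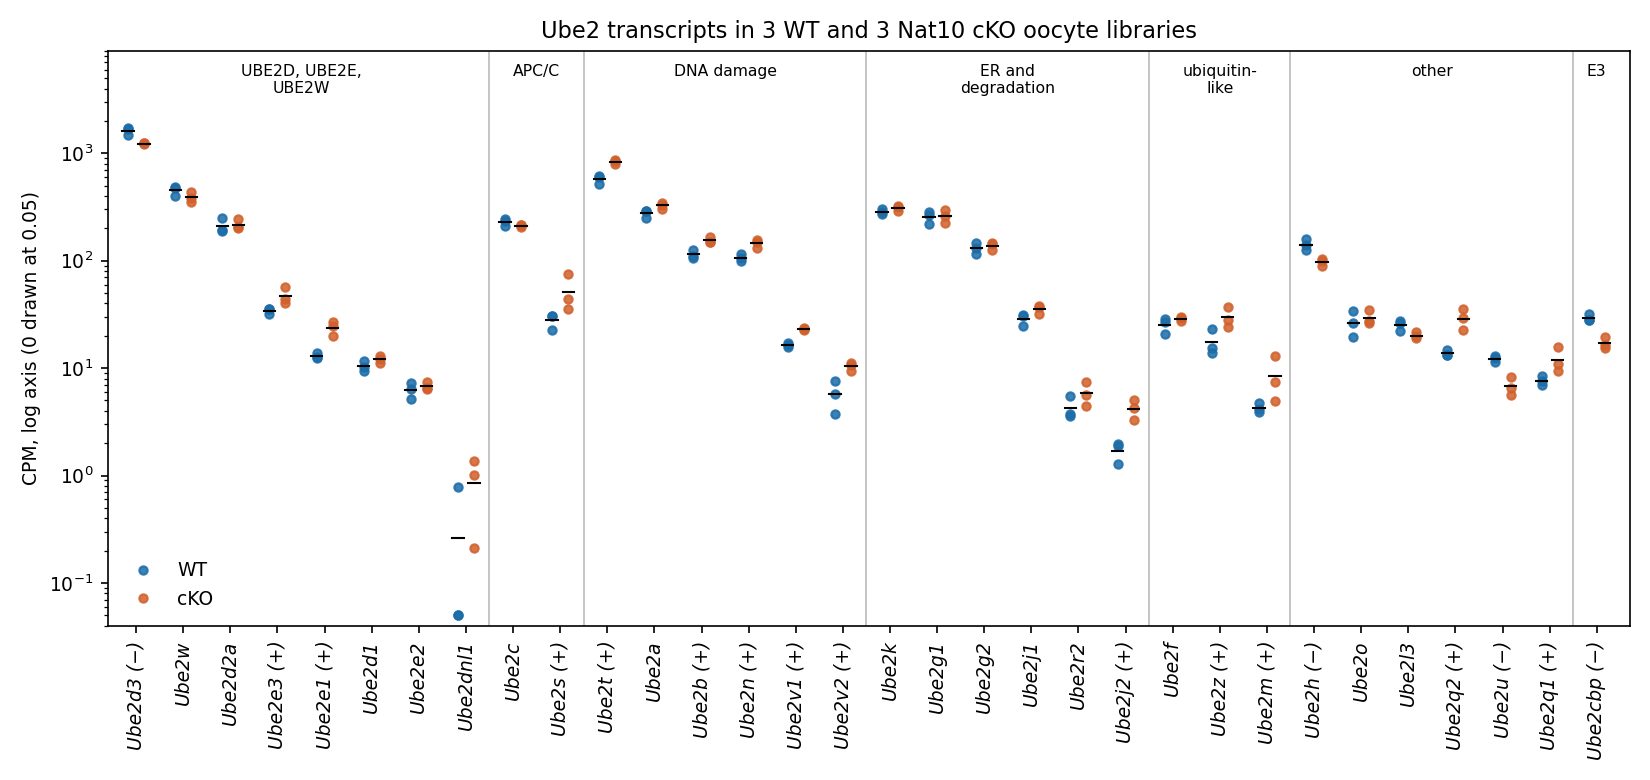
Level of each of 32 tested Ube2 genes in CPM on a log axis, with 1 point per library (WT in blue, cKO in orange), black bars for the means of 3 libraries, and genes grouped by role; (+) and (−) mark an adjusted p under 0.05 for higher or lower in cKO with TMM scaling. The levels span Ube2d3, lowest at 1216 CPM in a cKO library, down to Ube2dnl1, which had no count in 2 WT libraries. Of the genes drawn 13 carry (+) and 4 carry (−), beside 20.1% of all tested genes in each direction. With spike-in scaling these become 1 and 7, beside 8.37% of all tested genes higher and 34.2% lower.

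The generalist enzymes, taken here as the UBE2D and UBE2E families and UBE2W, which work with many RING-type E3 ligases, moved in both directions, with 2 rises and 1 fall among 8 tested. With TMM 20.1% of all tested genes were called in each direction. The role groups here and below are small, and no test was made of any group. Ube2d3, the member with the most counts, stood at 1723, 1673 and 1475 CPM in WT and 1216, 1238 and 1235 CPM in cKO. Every cKO library lay below every WT library, and the means were 1624 ± 131 and 1229.8 ± 12 CPM (SD, n = 3). The log2 change of -0.40 ± 0.10 (SE) passed the test in edgeR (adjusted p = 0.00763), and it was called in each alternative that was run. Its paralogs Ube2d1 and Ube2d2a were not called. Ube2d2a was at 189, 191 and 248 CPM in WT and 204, 201 and 245 CPM in cKO, and these ranges overlapped (log2 change 0.05 ± 0.14 (SE), adjusted p = 0.797 in edgeR). Ube2d1 had far fewer counts than Ube2d3 and was at 10.3, 9.36 and 11.6 CPM in WT and 11.3, 12.2 and 12.9 CPM in cKO, again with overlap. Ube2w, which attaches ubiquitin to the N-terminus of substrates, was at 488, 475 and 401 CPM in WT and 384, 439 and 352 CPM in cKO, where cKO replicate 2 lay within the WT range. Its log2 change of -0.22 was not called with TMM and was -0.63 with spike-in scaling, where it was called lower (adjusted p = 0.0115).

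Of the UBE2E genes, whose products add single ubiquitins, Ube2e1 and Ube2e3 rose and Ube2e2 was not called. Ube2e1 was at 13.7, 12.3 and 12.6 CPM in WT and 24.7, 27.0 and 19.7 CPM in cKO, with all cKO libraries above WT and a log2 change of 0.89 ± 0.19 (SE) (adjusted p = 0.00244 in edgeR). Of its counted exons 51.3%, or 711 bases, overlap Nkiras1 on the other strand, and Smart-seq2 keeps no strand, so reads of that stretch cannot be assigned to either gene with certainty. Nkiras1 itself was at a mean of 190 CPM in WT and 185 CPM in cKO and was not called (adjusted p = 0.841 in edgeR). Ube2e3 was at 35.5, 32.2 and 35.1 CPM in WT and 43.6, 40.6 and 57.0 CPM in cKO, without overlap, and its log2 change was 0.46 ± 0.16 (SE) (adjusted p = 0.0400 in edgeR). That call ended without WT replicate 1 or 2 or 3 or cKO replicate 1 or 3 (adjusted p 0.0574 to 0.189), and without cKO replicate 3, its highest library, the change was 0.30. Ube2e2 was at 7.24, 6.46 and 5.19 CPM in WT and 6.41, 7.43 and 6.55 CPM in cKO, and the genotypes overlapped.

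Of the 2 E2 genes of the anaphase-promoting complex, Ube2s rose with TMM and Ube2c was not called. UBE2C places the first ubiquitins on a substrate of that complex and UBE2S extends them into chains. Ube2c was at 246, 236 and 212 CPM in WT and 206, 214 and 216 CPM in cKO, overlapping ranges with a log2 change of -0.13 ± 0.11 (SE) (adjusted p = 0.391 in edgeR). It was called lower with spike-in scaling (-0.54, adjusted p = 0.0337) and after the length trend was removed (-0.36, adjusted p = 0.0119). Ube2s was at 22.5, 30.4 and 30.4 CPM in WT and 35.5, 43.6 and 75.3 CPM in cKO, and all cKO libraries lay above WT, with cKO replicate 3 highest. Its log2 change was 0.89 ± 0.24 (SE) (adjusted p = 0.0112 in edgeR). The call ended without WT replicate 1 or cKO replicate 3 (adjusted p 0.0595 to 0.0635), with a change of 0.51 without cKO replicate 3, and also after the length trend was removed (0.64, adjusted p = 0.0546). The number of Ube2c counts per Ube2s count was 10.9, 7.75 and 6.98 in WT and 5.82, 4.90 and 2.86 in cKO, so every cKO library had fewer Ube2c counts per Ube2s count than any WT library.

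Among the 6 genes grouped here under DNA damage signalling 5 rose and 0 fell with TMM, while with spike-in scaling 0 of the 6 were called in either direction. Ube2v1 was placed in this group as a partner of Ube2n. Of all tested genes 20.1% were called higher and 20.1% lower with TMM, and 8.37% and 34.2% with spike-in scaling. Ube2t, which with the E3 FANCL modifies the Fanconi anemia protein FANCD2, was at 595, 614 and 520.5 CPM in WT and 857, 787 and 847 CPM in cKO. The lowest cKO library lay above the highest WT library, and the means were 577 ± 49 and 830.1 ± 38 CPM (SD, n = 3). Its log2 change of 0.53 ± 0.11 (SE) had an adjusted p of 0.00214 in edgeR and was 0.12 with spike-in scaling (adjusted p = 0.687). After the length trend was removed it was 0.33 (adjusted p = 0.0176). Ube2a and Ube2b encode the paired homologs of yeast Rad6, which act with RAD18 in the bypass of DNA lesions and with RNF20 and RNF40 on histone H2B. Ube2b was at 125, 111 and 107 CPM in WT and 148, 149.8 and 165 CPM in cKO, a rise of 0.43 ± 0.12 (SE) on the log2 scale (adjusted p = 0.0116 in edgeR). Ube2a was at 292, 288 and 252 CPM in WT and 333, 344 and 304 CPM in cKO. Both genes showed all cKO libraries above WT, but Ube2a was the uncalled member with the smallest p (log2 change 0.24 ± 0.11 (SE), adjusted p = 0.114 in edgeR), and it was called only with library totals alone.

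UBE2N forms ubiquitin chains as a pair with UBE2V1 or UBE2V2, and transcripts of all 3 rose with TMM. Ube2n was at 115, 99.0 and 107 CPM in WT and 131, 149 and 156 CPM in cKO, without overlap, and rose by 0.44 ± 0.12 (SE) on the log2 scale (adjusted p = 0.0124 in edgeR). Ube2v1 was at 15.7, 16.98 and 16.6 CPM in WT and 22.5, 23.5 and 22.9 CPM in cKO, a narrow spread in each genotype, with a change of 0.48 ± 0.17 (SE) (adjusted p = 0.0346 in edgeR). The call of Ube2v1 ended when any single library was left out (adjusted p 0.0552 to 0.0945) and after the length trend was removed (0.41, adjusted p = 0.0596). Ube2v2 was at 5.74, 7.66 and 3.76 CPM in WT and 10.6, 11.2 and 9.35 CPM in cKO, also without overlap, with WT replicate 3 lowest. Its change of 0.86 ± 0.27 (SE) (adjusted p = 0.0213 in edgeR) was not called without WT replicate 1 or 3 or cKO replicate 1 (adjusted p 0.0552 to 0.0618). With spike-in scaling the changes of Ube2b, Ube2n, Ube2v1 and Ube2v2 were 0.026, 0.033, 0.080 and 0.43.

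Of the 6 genes whose enzymes act at the endoplasmic reticulum or build the chains that send proteins to the proteasome, 1 rose and 5 were not called. The share of all tested genes called higher with TMM was 20.1%. Ube2j2, one of a pair of membrane-anchored E2 enzymes of the endoplasmic reticulum, was at 1.96, 1.89 and 1.27 CPM in WT and 4.24, 3.26 and 5.04 CPM in cKO. The cKO libraries all lay above WT, at counts of 93 to 140 per cKO library and 25 to 55 per WT library. The log2 change was 1.28 ± 0.34 (SE) (adjusted p = 0.00874 in edgeR), the largest among the called members, and 0.87 with spike-in scaling (adjusted p = 0.0918). Of its exons 32.6% overlap Gm5801 on the same strand, which had 6 to 31 counts per library. Its partner Ube2j1 was at 30.7, 30.9 and 24.9 CPM in WT and 31.9, 36.9 and 38.1 CPM in cKO, with cKO above WT by a small margin and no call (log2 change 0.30 ± 0.16 (SE), adjusted p = 0.155 in edgeR). Ube2g1, Ube2g2 and Ube2k, which build degradation chains with cullin ligases or at the endoplasmic reticulum, were abundant, with means between 131 and 286 CPM in WT. Their log2 changes lay between 0.03 and 0.12, and their genotypes overlapped. Ube2r2, which extends chains on substrates of cullin ligases, was at 3.56, 3.74 and 5.49 CPM in WT and 5.57, 4.42 and 7.48 CPM in cKO and also overlapped.

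Transcripts of E2 enzymes for ubiquitin-like proteins held 3 rises among 4 tested, of which none was called with spike-in scaling. The shares of all tested genes called higher were 20.1% with TMM and 8.37% with spike-in scaling. The NEDD8 enzymes are encoded by Ube2m, which serves most cullins, and Ube2f, which serves cullin 5. Ube2m was at 4.13, 3.88 and 4.73 CPM in WT and 7.44, 4.91 and 13.1 CPM in cKO, above WT in all cKO libraries but spread widely among them. Its change of 1.00 ± 0.33 (SE) (adjusted p = 0.0279 in edgeR) was not called without WT replicate 1 or 2 or cKO replicate 3 (adjusted p 0.0774 to 0.197), and was 0.54 without cKO replicate 3. It was not called by limma-voom (adjusted p = 0.0590) or after the length trend was removed (adjusted p = 0.0625) either. Ube2f was at 27.0, 28.4 and 20.8 CPM in WT and 29.2, 27.2 and 30.03 CPM in cKO, with overlap. Ube2z, which receives ubiquitin or FAT10 from the E1 UBA6, was at 15.4, 13.8 and 23.3 CPM in WT and 28.2, 24.1 and 37.0 CPM in cKO, and rose by 0.77 ± 0.23 (SE) (adjusted p = 0.0171 in edgeR), a call that ended without WT replicate 1 or 2 or cKO replicate 3 (adjusted p 0.0708 to 0.0795). Ube2l6, the ISG15 E2 induced by interferon, had 0 counts in WT and 0, 2 and 2 in cKO.

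Of 6 other E2 genes tested 2 rose and 2 fell, beside 20.1% of all tested genes in each direction. Ube2q2, of a family of E2 enzymes with long N-terminal extensions, was at 13.2, 14.8 and 13.3 CPM in WT and 29.0, 22.6 and 35.2 CPM in cKO, with every cKO library above every WT library. Its log2 change was 1.07 ± 0.20 (SE) (adjusted p = 0.00101 in edgeR) and 0.67 with spike-in scaling (adjusted p = 0.0328), and the call held in each alternative that was run. Its relative Ube2q1 was at 6.95, 7.52 and 8.49 CPM in WT and 10.8, 9.33 and 15.7 CPM in cKO, without overlap and nearest to the threshold among the called members (log2 change 0.64 ± 0.24 (SE), adjusted p = 0.0485 in edgeR). The call of Ube2q1 ended without WT replicate 1 or 2 or 3 or cKO replicate 1 or 3 (adjusted p 0.0528 to 0.236) and with limma-voom (adjusted p = 0.0586), and its change was 0.40 without cKO replicate 3.

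Ube2h, the E2 of the CTLH ligase, was at 159.9, 139 and 125 CPM in WT and 98.9, 105 and 89.9 CPM in cKO, with all cKO libraries below WT. It fell by 0.53 ± 0.13 (SE) on the log2 scale (adjusted p = 0.00612 in edgeR). Ube2u was at 12.9, 11.3 and 12.4 CPM in WT and 5.64, 8.35 and 6.58 CPM in cKO, and its change of -0.83 ± 0.22 (SE) (adjusted p = 0.0101 in edgeR) was the largest fall among the members. Ube2cbp, the E3 gene, was at 32.0, 28.3 and 27.8 CPM in WT and 16.6, 19.3 and 15.5 CPM in cKO, and its change was -0.78 ± 0.17 (SE) (adjusted p = 0.00327 in edgeR). For both genes each cKO library lay below each WT library, and these falls, like those of Ube2d3 and Ube2h, were called in each alternative that was run. Ube2l3, an E2 for ligases that take ubiquitin onto their own cysteine, was at 27.4, 26.1 and 22.0 CPM in WT and 21.7, 19.7 and 19.0 CPM in cKO, below WT in all cKO libraries but called only with spike-in scaling (-0.73, adjusted p = 0.0164). Ube2o, a large enzyme with both E2 and E3 activity, was at 26.1, 19.5 and 34.0 CPM in WT and 27.2, 26.5 and 34.6 CPM in cKO, and the ranges overlapped.

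Among 5 sparsely counted members Ube2dnl1 was tested. It had 22, 0 and 0 counts in WT and 30, 6 and 38 in cKO, passed the filter through 2 cKO libraries and WT replicate 1, and was not called (adjusted p = 0.265 in edgeR). Without WT replicate 1, which held all WT counts, it passed the filter through cKO libraries alone, as the WT libraries left had 0 counts. The call in that fit (adjusted p = 0.0146 in edgeR) therefore cannot decide whether Ube2dnl1 differs. The catalytic stretch of Ube2dnl1 was identical over the 39 bases with that of Ube2dnl2, which had 0 counts in WT and 2 in 1 cKO library. Ube2ql1 had 14, 2 and 2 counts in WT and 28, 2 and 6 in cKO, and Ube2d2b had 2 counts in 1 cKO library. With Ube2l6, 4 members were therefore not tested.

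**Figure D2:**
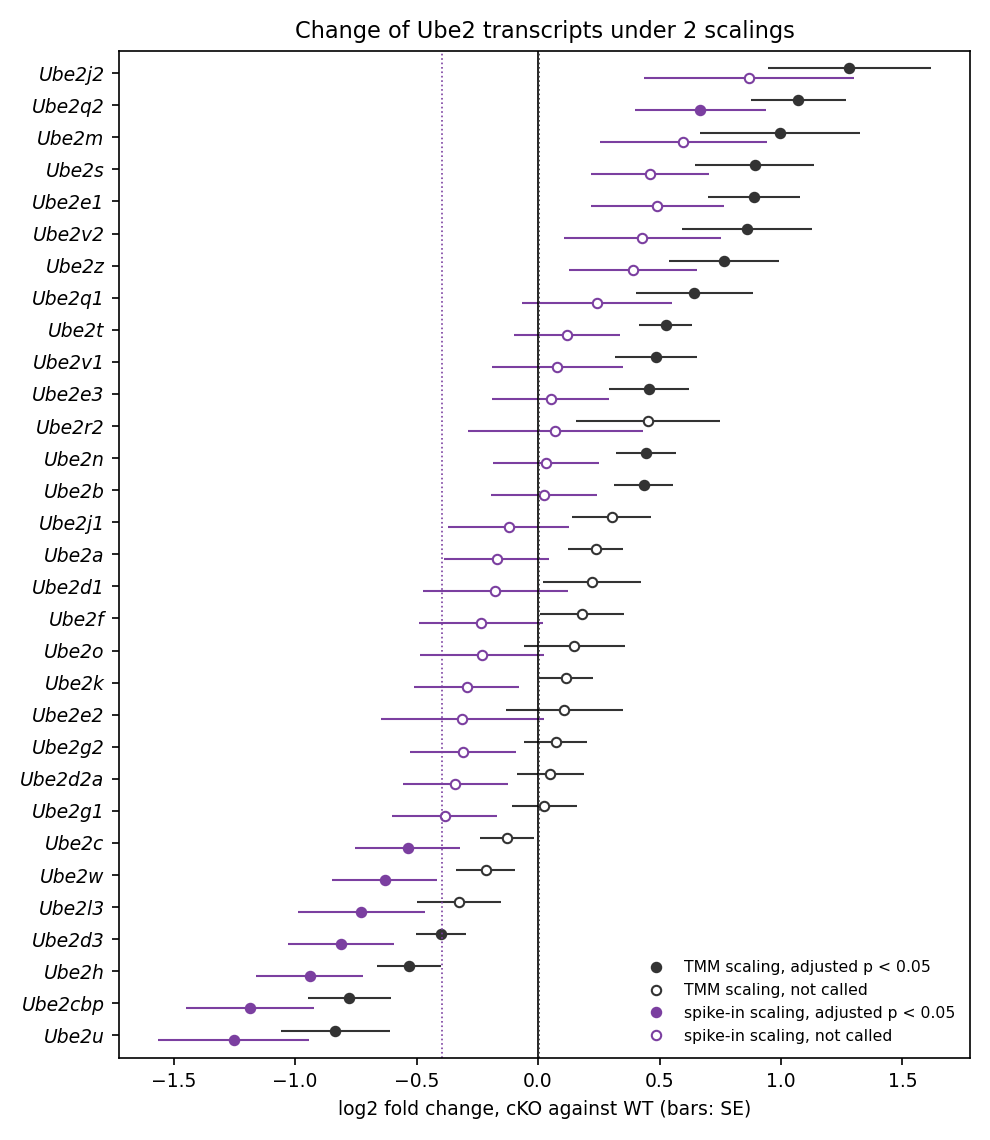
Log2 fold change of cKO against WT for 31 tested Ube2 genes (Ube2dnl1 left out for its wide error), with SE bars from edgeR, under TMM scaling (black) and spike-in scaling (purple); filled points have an adjusted p under 0.05 and dotted lines mark the median of all tested genes, 0.01 and -0.39. Under TMM 13 of the genes drawn are filled on the right and 4 on the left, and under spike-in scaling Ube2q2 alone is filled on the right and 7 genes on the left. Of all tested genes 20.1% were called in each direction under TMM, and 8.37% higher and 34.2% lower under spike-in scaling.

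The called members differed in level. Of the 10 members with the highest RPKM 2 rose and 1 fell, with log2 changes between -0.40 and 0.53, and of the 23 other tested members 12 rose and 3 fell, with changes between -0.83 and 1.59. Of all tested genes 20.1% were called higher and 20.1% lower with TMM. The share called higher was near that among the 10 and above it among the 23, and the share called lower was below it in both. The 14 members that rose had exonic lengths of 988 to 5892 bases with a median of 3170.5, the 4 that fell a median of 3261.5, and the 15 without a call a median of 2483, while the median over all tested genes was 2934 bases. After a smooth length trend was removed from each library, 11 members were called higher and 5 lower, against 19.1% and 19.7% of all tested genes.

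Processed copies of E2 genes are common in the mouse genome, and the sources used here do not give how reads that map to several places were counted. In 1 GENCODE M21 transcript per gene, 16 of the 37 members had no stretch of 50 bases found in a transcript of another gene on either strand. Up to 20% of such stretches were shared for 15 members and more for 6, among them Ube2v1 (81.3%), Ube2e1 (59.0%), Ube2h (46.3%), Ube2d3 (23.4%) and Ube2q2 (20.9%). These shares are not from processed copies alone. Ube2e1 also shared stretches with Nkiras1, which overlaps it, Ube2v1 with the protein-coding Gm20431, and Ube2h with the noncoding Gm26526 and Gm8739. How much of each share comes from processed copies was not measured. The values of these 6 members are therefore uncertain. The 16 members without shared stretches included 5 of the 14 that rose, among them Ube2t, Ube2b and Ube2s, and 1 of the 4 that fell, Ube2cbp.

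RefSeq promoter windows of the GRCm38.p6 build, from 250 bases before to 50 after a start site, were at hand for 30 of the 37 members, with 41 windows in all. The GC box letters GGGCGG, on either strand, occurred in 29 of these windows (70.7%) and in 23 of the 30 genes. Of all 32851 windows 35.7% held them. Windows of the same gene can overlap, as for Ube2d3, and the 32851 windows were not limited to genes expressed here. The letters CCAAT occurred in 9 windows (22%), against 37.4% of all, with 3 matches in the window of Ube2t and 6 in that of Ube2c. TAATTG, a sequence bound by the oocyte homeobox factor NOBOX, was in 0 of the 41 windows and in 8% of all. These matches are descriptions of letters in a window and not of sites in use.

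Ratios between related members within a library do not depend on the scaling factor of that library, though they can on a length trend, and 13 of them were compared between the genotypes by exact permutation tests over the 20 assignments of the libraries. The smallest two-sided p possible is 0.1, which 5 ratios reached (adjusted p = 0.26 over the 13), so none could pass 0.05 in this design. Counts of Ube2j1 per Ube2j2 count were 15.5, 16.2 and 19.2 in WT and 7.49, 11.2 and 7.53 in cKO, a mean log2 difference of -0.97 with the genotypes apart. For Ube2c per Ube2s the difference was -0.95. For Ube2q1 per Ube2q2 they were 0.528, 0.510 and 0.638 in WT and 0.374, 0.413 and 0.447 in cKO, a difference of -0.44. For Ube2a per Ube2b they were 2.35, 2.60 and 2.35 in WT and 2.24, 2.30 and 1.84 in cKO, a difference of -0.20 that became -0.10 without cKO replicate 3. In these pairs every cKO library lay below every WT library. Ube2d1 per Ube2d3 went the other way, with a difference of 0.62 and every cKO library above WT. Their exonic lengths are 1431 and 4695 bases, and after the length trend was removed the log2 changes were 0.058 for Ube2d1 and -0.28 for Ube2d3, closer to each other. The other 8 ratios overlapped between the genotypes, among them Ube2d2a per Ube2d3 (0.45, exact p = 0.2), Ube2e1 per Ube2e3 (0.44, exact p = 0.4, and 0.24 and 0.71 without cKO replicate 2 or 3) and Ube2g1 per Ube2g2 (-0.05, exact p = 0.9, and -0.21 to 0.10 when single libraries were left out).

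**Figure D3:**
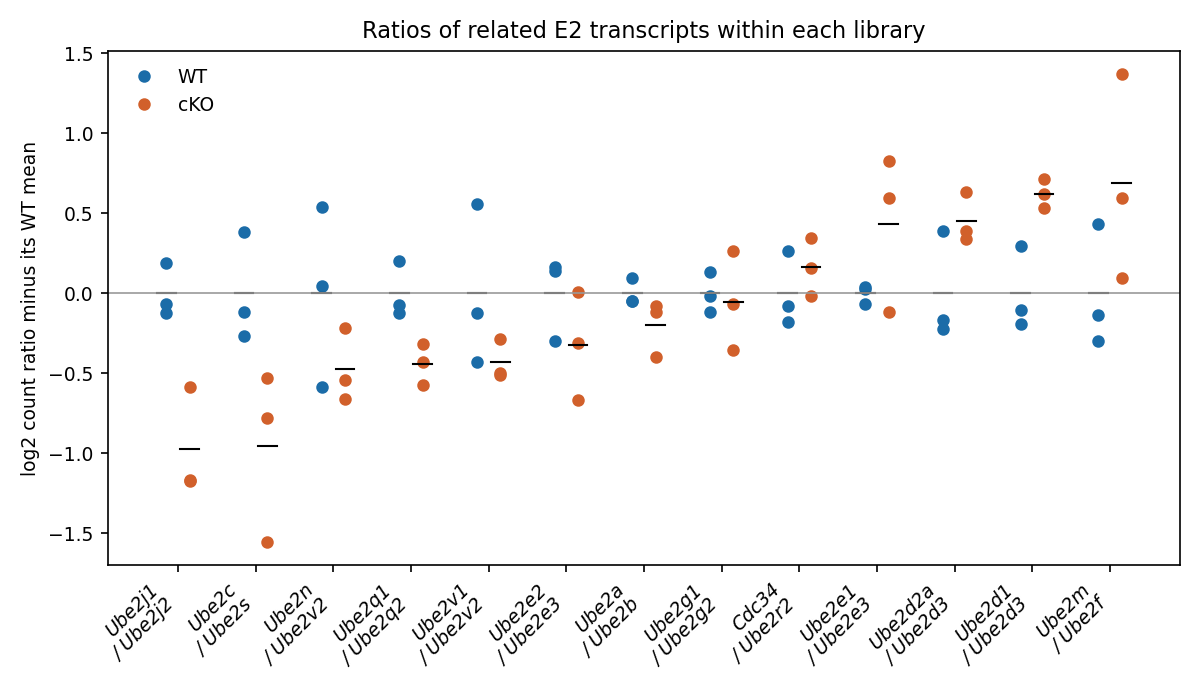
Log2 ratio of the counts of 2 related E2 genes in each library, minus the mean of the WT libraries, for 13 pairs ordered by the difference between genotypes, with WT in blue, cKO in orange and black bars for the means of 3 libraries. The genotypes are apart for 5 pairs, with Ube2j1 per Ube2j2 and Ube2c per Ube2s lowest in cKO at mean differences of -0.97 and -0.95, and overlap for the other 8.

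The genes around the E2 enzymes in the pathway were taken from 4 lists with 65 tested members, of which 20 rose and 11 fell with TMM, turning to 6 and 24 with spike-in scaling. These are 30.8% and 16.9% with TMM, beside 20.1% of all tested genes in each direction, and 9.23% and 36.9% with spike-in scaling, near the 8.37% and 34.2% of all genes. Without cKO replicate 3 the TMM count of rises was 13, in a fit that called 31% of all tested genes in either direction, against 40.2% with all 6 libraries. Of 9 E1 genes tested 2 rose and 1 fell. Uba1, the main ubiquitin E1, was at 293, 299 and 366 CPM in WT and 232, 263 and 225 CPM in cKO, below WT in all cKO libraries, and fell by 0.41 ± 0.12 (SE) on the log2 scale (adjusted p = 0.0188 in edgeR). That call ended without WT replicate 3 or cKO replicate 1 or 3 (adjusted p 0.0612 to 0.0764), after the length trend was removed (-0.29) and with scaling by library totals (-0.30), and the change was -0.80 with spike-in scaling. Mocs3, which activates URM1, rose by 1.43 ± 0.49 (SE) from 0.595 CPM, and was not called without any of WT replicates 1, 2 and 3 and cKO replicates 1 and 3 in turn (adjusted p 0.0519 to 0.0888) or with spike-in scaling (1.05, adjusted p = 0.180).

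Of 13 genes for ubiquitin and ubiquitin-like proteins tested, 7 (53.8%) rose and 0 fell with TMM. All tested genes were called in each direction in 20.1%. Urm1, a ubiquitin-like sulfur carrier for tRNA, was at 3.56, 2.86 and 3.76 CPM in WT and 19.4, 15.8 and 19.5 CPM in cKO and rose by 2.42 ± 0.23 (SE) on the log2 scale. Nedd8 was at 123, 129 and 117 CPM in WT and 177, 194 and 206 CPM in cKO and rose by 0.64 ± 0.12 (SE), or by 0.31 after the length trend was removed. Rps27a, which encodes ubiquitin fused to a ribosomal protein, rose by 0.52 ± 0.12 (SE). For Nedd8 and Rps27a the changes with spike-in scaling were 0.23 and 0.11, neither of them called, and Rps27a was not called after the length trend was removed (adjusted p = 0.0738).

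Of 8 tested genes for E2 and E2-like proteins with other names 3 rose and 1 fell. That is 50% called, beside 40.2% of all tested genes. Ufc1, the E2 of UFM1, was at 18.5, 13.8 and 14.4 CPM in WT and 52.8, 42.4 and 50.9 CPM in cKO, so that each cKO library exceeded each WT library, and rose by 1.64 ± 0.18 (SE) on the log2 scale (adjusted p = 2.96e-05 in edgeR). The autophagy E2 genes went apart: Atg3, for conjugation of LC3-type proteins, rose by 1.27 ± 0.18 (SE), and Atg10, for conjugation of ATG12, changed by -0.89 ± 0.23 (SE). Cdc34, the paralog of Ube2r2, was at 44.6, 36.9 and 50.6 CPM in WT and 57.4, 58.5 and 86.7 CPM in cKO and rose by 0.62 ± 0.18 (SE), a call that ended without WT replicate 1 or 2 or cKO replicate 3 (adjusted p 0.0534 to 0.0898), after the length trend was removed and with spike-in scaling (0.22), and its change without cKO replicate 3 was 0.40.

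Of 35 E3 partners 8 rose and 9 fell, which is 48.6% called, beside 40.2% of all genes. Syvn1, the E3 of endoplasmic reticulum degradation also known as HRD1, was at 71.3, 65.4 and 79.4 CPM in WT and 208, 174 and 185 CPM in cKO and rose by 1.39 ± 0.13 (SE) on the log2 scale. Rnf7, the RING subunit that UBE2F serves, rose by 1.03 ± 0.18 (SE), from 25.4 ± 5.5 to 51.9 ± 6.1 CPM (SD, n = 3). Pias1, a ligase for a ubiquitin-like protein, was at 397, 414 and 348 CPM in WT and 202, 241 and 165 CPM in cKO and changed by -0.93 ± 0.14 (SE), and Rnf139, an E3 of the endoplasmic reticulum membrane, changed by -0.97 ± 0.16 (SE). For each of these 4 genes the genotypes did not overlap in CPM, and the calls held in each alternative that was run, with Rnf7 at 0.62 with spike-in scaling.

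**Figure D4:**
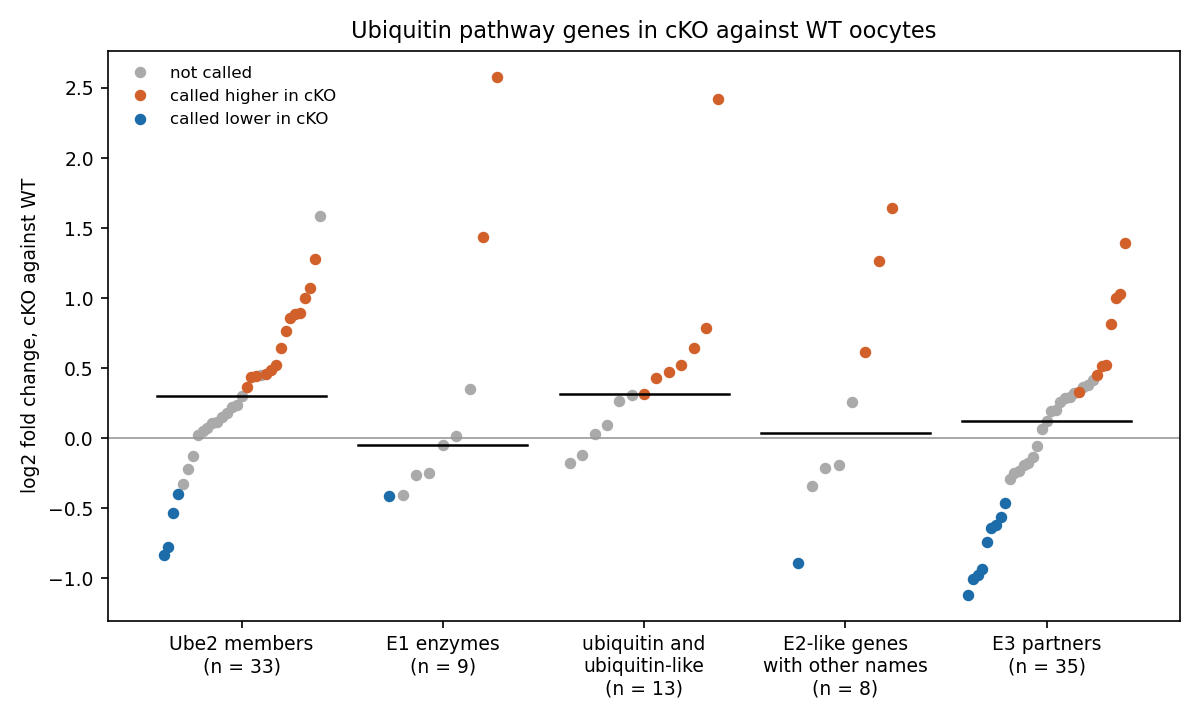
Log2 fold change of cKO against WT for the tested Ube2 members and for 4 lists of other ubiquitin pathway genes, with 1 point per gene in rank order within a list, colored by its call in edgeR with TMM scaling, and black bars for list medians. The medians are 0.30 for the 33 Ube2 members, -0.05 for 9 E1 genes, 0.31 for 13 ubiquitin and ubiquitin-like genes, 0.04 for 8 other E2-like genes and 0.12 for 35 E3 partners. With spike-in scaling the median of the Ube2 members is -0.12 and that of all tested genes -0.39.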

How the data were processed

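The deposited table holds raw counts of the authors for each gene in 6 libraries, with exons and exonic lengths as featureCounts lays them out, per the file headers. Tools named, per the submitters' processing notes, are STAR 2.7.10a, featureCounts and Trim Galore 0.6.7, with the mm10 build. The handling of multi-mapping reads and the strand setting are not given in the sources used here. A second deposited table holds the fraction of reads mapped and from ERCC RNA; its headings say percent, its denominator is not stated, and endogenous reads per spike-in read were taken as the mapped less the ERCC fraction over the ERCC fraction.

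Genes were filtered with filterByExpr (minimum count 10), scaled by TMM and tested with edgeR 4.0.16 in R 4.3.3 (quasi-likelihood F test, two-sided, no block, Benjamini-Hochberg adjustment over 14114 genes, threshold 0.05). The SE is the log2 change divided by the square root of F. Ratios used counts plus 0.5. The test was checked on simulated data. Alternatives were other scalings (size factors of DESeq2 1.42.0, totals, spike-in), no filter, DESeq2, limma-voom (limma 3.58.1), length offsets, a replicate block and leaving out each library. Each called member, the most abundant members and up to 4 called genes per list with the smallest p were named. Some genes that this rule names are not reported here, and they stay in the counts and medians. Members and lists were chosen with earlier results of these data known. Protocols without molecular identifiers count PCR copies as reads.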

Additional observations from a re-analysis of the deposited data

How the results depend on the processing

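With spike-in scaling the calls over all genes were 1182 higher and 4832 lower, those of members 1 and 7, those of other pathway genes 6 and 24, and the median of members was -0.12; with library totals alone that median was 0.42. Leaving out single libraries gave 7 to 13 members higher and 4 lower in each case, and 13 to 21 other pathway genes higher. In these fits 30.4% to 37.7% of all tested genes were called in either direction, against 40.2% with all 6 libraries. The Nat10 call held in all 15 alternatives. Of the 18 called members 5 (Ube2d3, Ube2h, Ube2cbp, Ube2u and Ube2q2) kept their call in all 15, and 5 more (Ube2t, Ube2b, Ube2n, Ube2e1 and Ube2j2) lost it with spike-in scaling alone. Spike-in scaling turned the sign of the uncalled Ube2d2a (-0.34), Ube2a (-0.17), Ube2j1 (-0.12), Ube2g1 (-0.38), Ube2f (-0.23), Ube2k (-0.29), Ube2d1 (-0.18), Ube2e2 (-0.31), Ube2o (-0.23) and Ube2g2 (-0.31). Length offsets turned Ube2g2 (-0.016, and -0.0098 with the replicate block). Leaving out 1 library turned uncalled members near 0: Ube2d2a ranged from -0.044 to 0.18, Ube2g1 from -0.070 to 0.13, Ube2g2 from -0.00084 to 0.16, Ube2o from -0.019 to 0.36 and Ube2e2 from -0.014 to 0.24; the log2 difference of Ube2g1 per Ube2g2 ranged from -0.21 to 0.10. The cause of these changes was not tested. Whether equal replicate numbers pair the libraries of the 2 genotypes is not settled by these values. Correlations of deviations were -0.02, 0.06 and 0.11 for equal numbers and lay between -0.11 and 0.065 for unequal numbers. With a replicate block 43.9% of all tested genes were called, against 40.2% without it. The block called 14 members higher and 4 lower, as without it, while Mocs3 lost its call (1.45, adjusted p = 0.0521 in edgeR). For genes with few counts, such as Ube2dnl1, depth limits what can be seen.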
